A study of Mus musculus with 37 samples.

Results

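The cells compared are adipose tissue macrophages with high and with low levels of Mrc1, the gene of the mannose receptor CD206. They were chosen by their measured Mrc1 value. A cell at 100 FPKM or more was Mrc1-high, a cell below 20 FPKM was Mrc1-low, and cells between these values were left out. FPKM is the number of fragments scaled to transcript length and library size. Of 37 cells, 18 were Mrc1-high, 7 were Mrc1-low and 10 lay between. Cells 7 and 27 were also left out: they held 7 and 8 of 8 listed fibroblast genes at 1 FPKM or more, where the other 35 cells held at most 1.

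The study asked which macrophage populations adipose tissue holds as its physiology changes. All 37 libraries, each made from 1 cell, belonged to a single labelled group: adipose tissue macrophages (ATM) sorted from the epididymal white fat of male C57BL/6J mice given a high-fat diet. The diet supplied fat, carbohydrate and protein at 60%, 20% and 20% of its calories. Fat pads were minced and treated with collagenase for 30 min, and sorted cells entered a Fluidigm C1 chip, with libraries from a Nextera XT kit. The sources used here do not give age, sort gate or the animal behind a cell. The cells therefore count as 1 sample and are not replicates. No p-value was computed and every difference below describes these 25 cells.

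Genes of the labelled cell type were detected, meaning 1 FPKM or more, in most or all compared cells. Csf1r, Lyz2, Tyrobp, Fcer1g, C1qb and Cd14 were detected in all 25 cells, Emr1 in 24, Cd68 in 23 and Ptprc in 22. Detection alone is a weak sign, because cell 7 also had Csf1r (1.07 FPKM) to Cd14 (53.7 FPKM). Lyz2, Tyrobp, Fcer1g and C1qb stood at 104.6 FPKM or more in every compared cell, against 39.5 or less in cells 7 and 27. Cd14 fell to 1.54 FPKM in a Mrc1-high cell, below cell 7. Mrc1-high cells had 1224 to 2536 detected genes (median 1862) and Mrc1-low cells 1254 to 2424 (median 1691). How many fragments a cell gave is not stated, and depth is unknown. As a substitute, the worth of 1 fragment was estimated from low values. It exceeded 4 times the median in 4 of the 18 Mrc1-high cells (2, 11, 15 and 17) and in 1 of the 7 Mrc1-low cells (24). These are called shallow. The FPKM of a cell summed to 225528 to 1.12e+06 (median 292621) in Mrc1-high and to 247234 to 1.84e+06 (median 358168) in Mrc1-low cells. The highest sums of the 2 sides were those of the shallow cells 2 and 24. Cell numbers 0 to 19 held 12 Mrc1-high and 3 Mrc1-low cells, and numbers 20 to 36 held 6 and 4. The part played by depth or by these number ranges in the differences was not tested beyond the values given beside them.

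CD206 is an endocytic receptor that binds mannose-bearing glycoproteins and takes them into the cell. In fat it marks macrophages that live in the tissue around vessels and between adipocytes. Such cells are known for scavenging, for clearing dead cells and for their long residence, whereas macrophages that arrive from blood monocytes carry the chemokine receptor CCR2 and, in obese fat, take up lipid around dying adipocytes.

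Mrc1 alone set the sides, and 3 other genes served as markers of CD206-bearing macrophages: Stab1 (stabilin-1, a scavenger receptor), Pf4 (the chemokine platelet factor 4) and Sepp1 (selenoprotein P, a secreted selenium carrier, named Selenop in RefSeq). The 250 bases upstream of each start are shown because these 4 genes mark the cells compared and differ in how closely they followed Mrc1. The sequences are those of RefSeq on GRCm38.p6, 5′ to 3′ on the strand of the gene. Capitals mark matches on either strand to 2 motifs, the PU.1 core GAGGAA and the Maf half-site TGCTGA. PU.1 and Maf proteins are macrophage transcription factors.
Mrc1, chr2:14229164-14229413, plus strand: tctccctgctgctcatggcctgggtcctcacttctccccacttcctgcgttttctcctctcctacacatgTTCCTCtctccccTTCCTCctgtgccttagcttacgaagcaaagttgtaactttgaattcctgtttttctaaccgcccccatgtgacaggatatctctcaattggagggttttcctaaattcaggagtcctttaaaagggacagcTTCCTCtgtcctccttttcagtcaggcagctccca
Stab1, chr14:31168642-31168891, minus strand: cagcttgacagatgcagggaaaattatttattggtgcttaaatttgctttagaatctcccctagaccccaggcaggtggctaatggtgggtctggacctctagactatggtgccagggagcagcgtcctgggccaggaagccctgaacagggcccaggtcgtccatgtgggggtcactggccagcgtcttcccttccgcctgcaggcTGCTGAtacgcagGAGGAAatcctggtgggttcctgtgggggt
Pf4, chr5:90772185-90772434, plus strand: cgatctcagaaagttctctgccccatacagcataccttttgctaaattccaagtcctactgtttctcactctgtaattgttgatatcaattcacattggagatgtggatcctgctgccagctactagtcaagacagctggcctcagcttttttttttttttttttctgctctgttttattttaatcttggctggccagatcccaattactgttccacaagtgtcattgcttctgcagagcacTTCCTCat
Sepp1, chr15:3270517-3270766, plus strand: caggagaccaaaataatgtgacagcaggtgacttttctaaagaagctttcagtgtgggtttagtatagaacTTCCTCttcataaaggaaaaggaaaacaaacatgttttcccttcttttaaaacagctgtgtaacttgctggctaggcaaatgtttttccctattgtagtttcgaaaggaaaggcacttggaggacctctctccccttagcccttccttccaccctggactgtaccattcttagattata
The Mrc1 window held 3 matches to the PU.1 core and each of the others held 1. Stab1 also held 1 Maf half-site. For Sepp1 the first of 3 listed starts was taken. Over 32851 mouse promoter windows of the same length, 23.3% held the PU.1 core and 16.1% the Maf half-site. A match is a description of the letters, not a binding site.

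Mrc1 itself spanned 100.45 to 1506 FPKM in the Mrc1-high cells (median 366) and 0.527 to 6.86 FPKM in the Mrc1-low cells (median 1.38), as the rule set it. The cells nearest the limits were cell 6 at 100.45 FPKM, just inside the high side, and cell 29 at 76.0, just outside it. At the other limit, cell 32 stood at 6.86 inside the low side and cell 26 at 24.1 outside it. The 10 cells between had a median of 54.8 FPKM. Values were next compared as log2(FPKM + 1). A difference is the mean of the Mrc1-high cells minus the mean of the Mrc1-low cells on this scale.

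Of the other markers, Pf4 and Stab1 were higher in the Mrc1-high cells by more than 2, the size used here to call a gene, which is 4-fold on this scale. Pf4 ran from 2.66 to 25433 FPKM (median 822) in the Mrc1-high and from 0.980 to 1322 FPKM (median 3.34) in the Mrc1-low cells, a difference of 3.24. Its sides overlapped: cells 4, 35 and 24 of the low side reached 1322, 360 and 178 FPKM. Stab1 was detected in 12 of 18 Mrc1-high cells (0.00575 to 141 FPKM, median 5.88) and in 1 of 7 Mrc1-low cells (0 to 20.7 FPKM, median 0.0289), a difference of 2.17. Leaving out cell 8, 11, 14 or 30 brought the Stab1 difference below 2, to between 1.92 and 1.99, and without the shallow cells it was 1.79. Sepp1 was present in every cell, at 63.0 to 5458 FPKM (median 1805) in the Mrc1-high and at 19.4 to 20934 FPKM (median 479) in the Mrc1-low cells. The highest value of all was in the shallow Mrc1-low cell 24. The Sepp1 difference was 1.39 over all compared cells, 2.31 without cell 24, 2.90 without all shallow cells and 0.65 without cell 36, so whether it passed 2 depended on these cells.

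**Figure D1:**
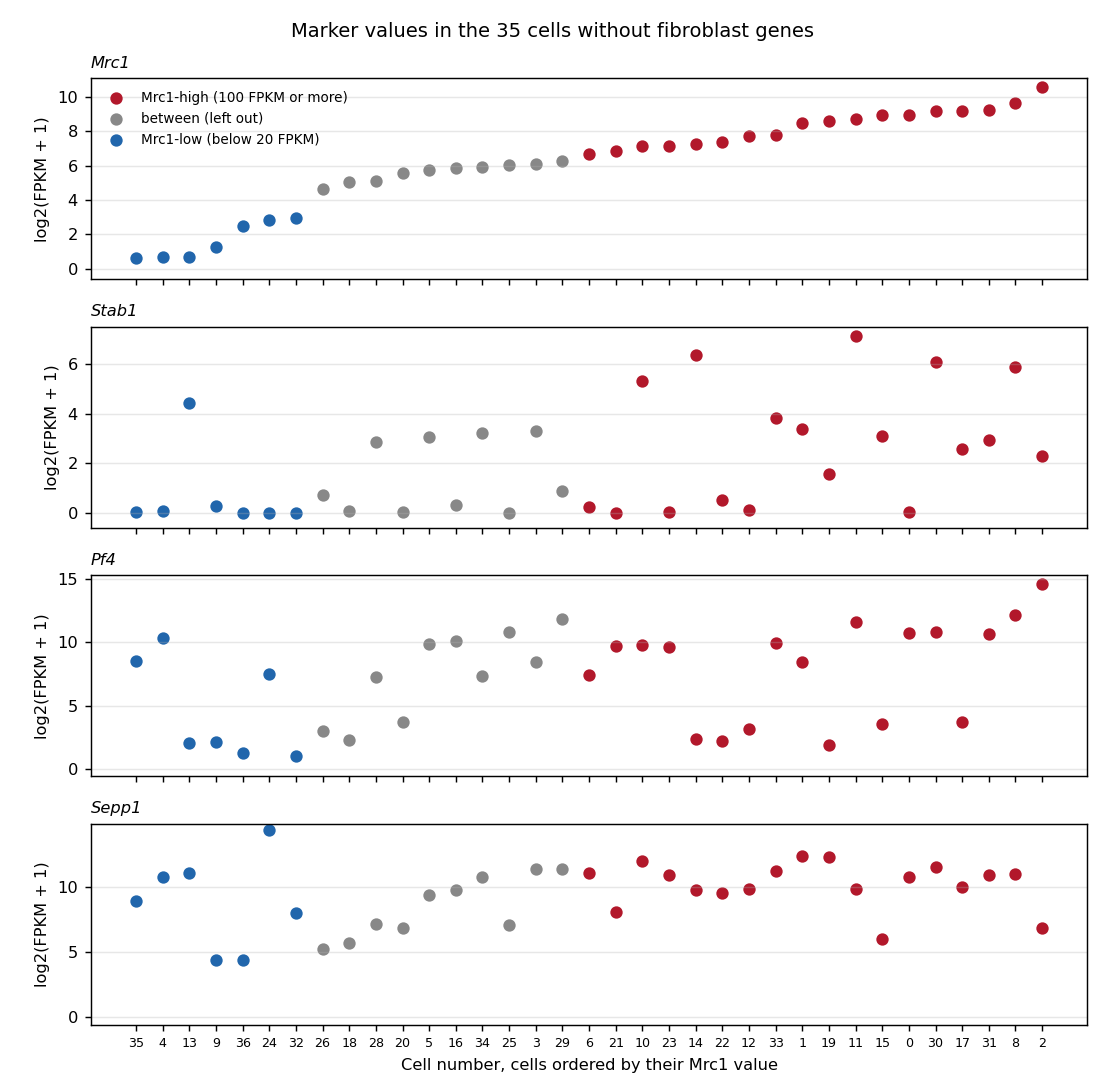
Values of Mrc1, Stab1, Pf4 and Sepp1 as log2(FPKM + 1), on the vertical axes, in the 35 cells without fibroblast genes, ordered along the horizontal axis by Mrc1. Each point is a cell, red for Mrc1-high, grey for cells between and blue for Mrc1-low. Stab1 was detected in 1 of the 7 blue cells, while Pf4 and Sepp1 overlapped widely between the colours.

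Among the 23947 genes of the table, 4368 besides Mrc1 reached 1 FPKM in at least 5 cells and were compared. Of these, 106 genes (2.43%) were higher in the Mrc1-high cells by 2 or more and 172 (3.94%) were lower by 2 or more. The median difference over all compared genes was 0.08, with quartiles of -0.64 and 0.67. No compared gene separated the sides completely: over the 126 pairs of a high and a low cell, the high cell had the higher value in 9.52% to 91.7% of pairs. The sign of the difference was the same within both number ranges, without the shallow cells and without any single cell for 104 of the 106 higher and 148 of the 172 lower genes. The same held for 1782 of all 4368 compared genes. The called genes were picked for a large difference in these same cells, so their agreement is no independent support. The counts were larger within the number ranges: within cells 0 to 19 they were 371 and 333, and within cells 20 to 36 they were 216 and 544.

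The 15 genes with the largest higher values, among those whose sign held in every such subset, included several of endocytosis, immunoglobulin uptake and complement. Dab2, an adaptor that loads cargo into clathrin-coated pits, was detected in all 18 Mrc1-high cells at 4.76 to 357 FPKM (median 77.3). In the Mrc1-low cells Dab2 ran from 0.163 to 91.0 FPKM (median 1.21), and the difference was 3.64. Every Mrc1-high cell lay above the median of the low side, and 8 lay above all low cells. Ap1b1, a subunit of the AP-1 adaptor of the trans-Golgi and endosomes, had 0.0581 to 803 FPKM (median 34.3) against 0 to 8.96 FPKM (median 0.118), with a difference of 3.62. For Ap1b1 12 Mrc1-high cells exceeded all Mrc1-low cells.

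Both Fc receptor genes of this group bind IgG. Fcgr2b, the inhibitory receptor, spanned 0.245 to 1432 FPKM (median 71.8) in the Mrc1-high cells and 0.131 to 196 FPKM (median 0.665) in the Mrc1-low cells, a difference of 3.51. It was detected in 17 of 18 and 3 of 7 cells. Its difference was 5.86 within cells 0 to 19 and 0.98 within cells 20 to 36. Fcgrt, the neonatal Fc receptor that recycles IgG and albumin, spanned 0.827 to 938 FPKM (median 175) against 0.0706 to 390 FPKM (median 2.41), a difference of 3.15. Single low cells again reached into the range of the high cells, so the sides overlapped for both receptors.

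C1qa, a chain of the complement recognition protein C1q, was abundant in every Mrc1-high cell, at 234 to 3340 FPKM (median 948). The Mrc1-low cells ranged from 0.715 to 5130 FPKM (median 93.4), giving a difference of 3.50. The highest C1qa value of all 25 cells belonged to a Mrc1-low cell, cell 4. Within cells 0 to 19, where cell 4 lies, the difference was 1.69, and within cells 20 to 36 it was 4.51. Ctsc, the lysosomal protease cathepsin C, had 0.437 to 625 FPKM (median 222) against 0.210 to 206 FPKM (median 5.08), a difference of 3.49, with 10 high cells above every low cell.

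The other genes of the higher group were detected in at most 3 of the 7 Mrc1-low cells and were uneven on the high side. Psme1, the alpha subunit of the proteasome activator PA28, had the largest difference, 4.01, with 0 to 443 FPKM (median 56.7) in the Mrc1-high and 0 to 8.06 FPKM (median 0.153) in the Mrc1-low cells. Txnip, which binds thioredoxin and restrains glucose uptake, did not pass 0.393 FPKM in any Mrc1-low cell and was detected in 11 of 18 Mrc1-high cells, up to 264 FPKM, a difference of 3.40. Mapk3, the kinase ERK1, likewise stayed at or below 0.0845 FPKM on the low side and reached 304 FPKM on the high side, where 12 cells had it, a difference of 3.28. Atf3, a stress-induced transcription factor, was detected in 16 of 18 and 3 of 7 cells, with a difference of 2.98. Pea15a, which binds ERK kinases, differed by 3.28, AI607873 by 3.41 and Pdcd5, a gene linked to apoptosis, by 2.90. On the low side Pea15a, AI607873 and Pdcd5 were detected in 2, 3 and 2 cells, up to 34.1, 28.2 and 2.78 FPKM.

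**Figure D2:**
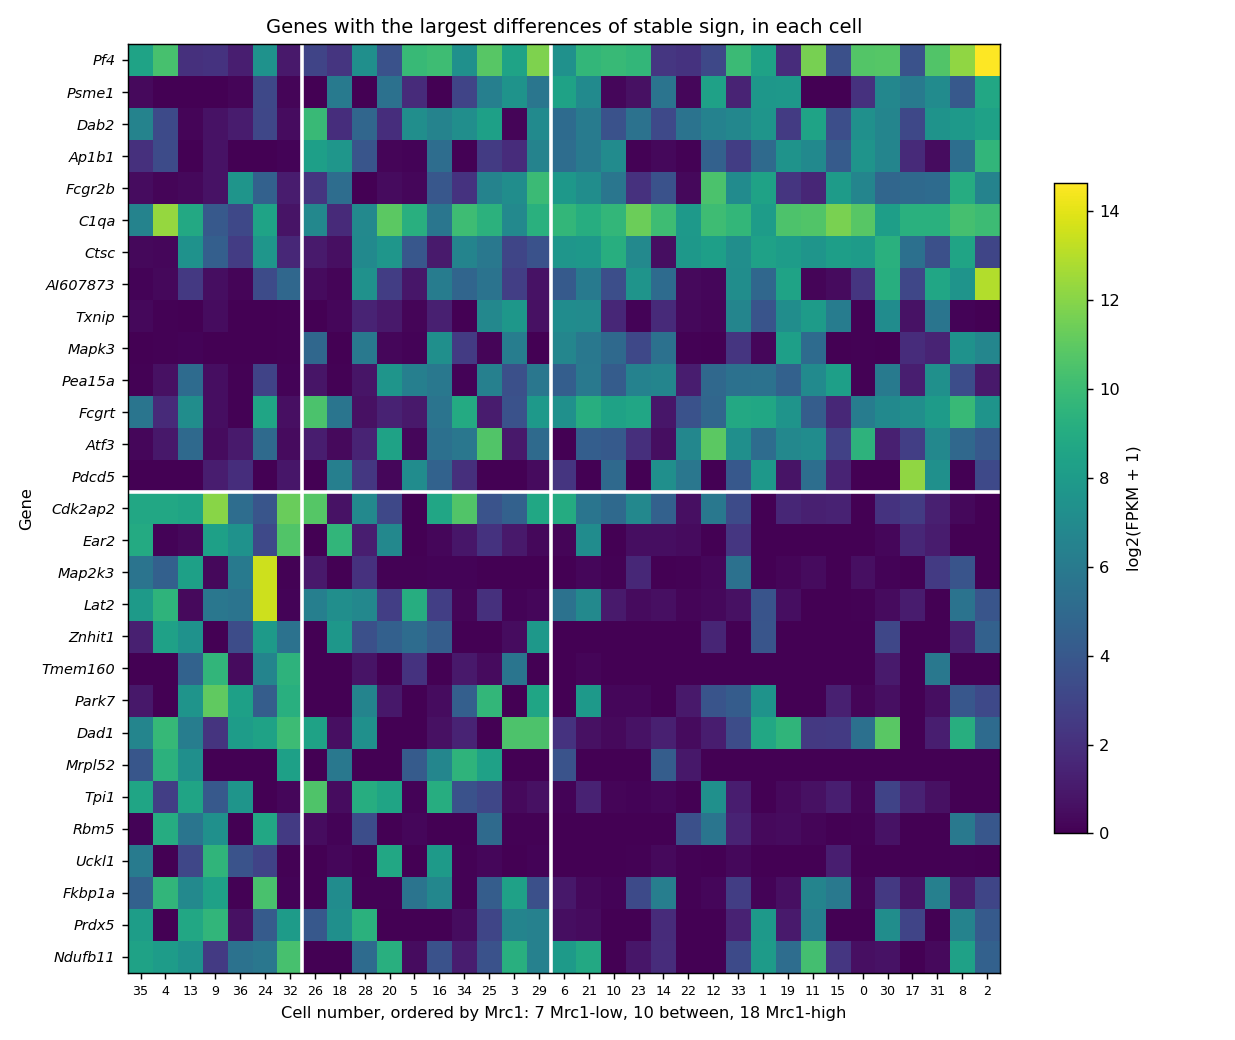
Heat map of log2(FPKM + 1) for 14 of the 15 genes with the largest higher and the 15 with the largest lower differences (rows, split by the horizontal white line) in 35 cells (columns, ordered by Mrc1). Vertical white lines separate the 7 Mrc1-low, 10 between and 18 Mrc1-high cells. The lower genes are bright in most of the 7 left columns and dark in most of the 18 right ones, with exceptions in every row.

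The 15 genes with the largest lower values were led by Cdk2ap2, whose product binds the cell-cycle kinase CDK2. Cdk2ap2 was detected in all 7 Mrc1-low cells at 13.4 to 4175 FPKM (median 429), and ranged from 0 to 515 FPKM (median 2.66) in the Mrc1-high cells. The difference was -5.49, the largest in either direction among the 30 genes. All but 1 of the 18 high cells lay below the low median, and 12 lay below every low cell. Ear2, a secreted ribonuclease, had 0.0957 to 1598 FPKM (median 174) in the low cells and 0 to 138 FPKM (median 0.0695) in the high cells, a difference of -4.79. It was detected in 5 of 7 and 4 of 18 cells. Ear2 has near-identical copies in the mouse genome, so its value is uncertain.

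Several of the lower genes take part in signalling. Map2k3, the kinase that activates p38, ranged from 0.0808 to 11594 FPKM (median 48.3) in the low cells and from 0 to 42.8 FPKM (median 0.138) in the high cells, with a difference of -4.63. Lat2, an adaptor of immune receptors, ranged from 0.114 to 11707 FPKM (median 53.8) against 0 to 115 FPKM (median 0.469), a difference of -4.42. Both maxima were in the shallow cell 24, and without it the differences were -3.29 for Map2k3 and -3.19 for Lat2. Fkbp1a, the FK506-binding protein FKBP12, differed by -3.43, with medians of 120 FPKM in the low and 1.05 FPKM in the high cells, and by -1.27 within cells 20 to 36.

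The rest are widely used genes of metabolism, mitochondria and RNA or protein handling. Tpi1, the glycolytic triosephosphate isomerase, had a median of 16.1 FPKM (0 to 381) in the Mrc1-low and 0.243 FPKM (0 to 160) in the Mrc1-high cells, a difference of -3.54. Park7, the redox-sensitive protein DJ-1, differed by -3.98, and Prdx5, a peroxiredoxin that removes peroxides, by -3.40, with low-side medians of 189 and 264 FPKM. Ndufb11, a subunit of respiratory complex I, was detected in 7 of 7 and 10 of 18 cells and differed by -3.37, though by -1.91 within cells 0 to 19. Mrpl52, of the mitochondrial ribosome, differed by -3.62 and Dad1, of the enzyme that attaches N-glycans, by -3.73. Znhit1 (chromatin remodelling) differed by -4.06, Rbm5 (splicing) by -3.53 and by -1.87 within cells 20 to 36, Uckl1 (uridine salvage) by -3.52 and Tmem160 by -3.99.

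Of 18 measured genes on the CD206 resident list without Mrc1, 6 were higher by 2 or more and 1 was lower. The median difference was 1.28, against 0.08 over all compared genes. Over all compared genes 2.43% were higher and 3.94% lower, and the counts of this and every later list stand beside these shares. In lists this short a count of 0 or 1 is no result about the list. The CD206 resident list holds Pf4, Stab1, Sepp1 and Fcgrt, described above. It was taken up with the behaviour of these cells known, so it is no independent evidence of direction. F13a1, a coagulation factor subunit made by tissue macrophages, ran from 0.0492 to 589 FPKM (median 18.97) in the high cells and from 0.0315 to 12.3 FPKM (median 0.176) in the low cells, a difference of 2.66. Without the shallow cells the F13a1 difference was 1.98. Igf1, a growth factor, had a median of 35.7 FPKM (0.215 to 455) against 0.301 FPKM (0.0577 to 258), a difference of 2.50, and of 1.04 within cells 20 to 36. Ccl8, a chemokine, was detected in 6 Mrc1-high and 0 Mrc1-low cells, reached 3959 FPKM and differed by 2.41. The Ccl8 difference was 1.86 without cell 10, 1.91 without cell 17 and 0.62 with medians, and it was 3.48 within cells 0 to 19 but 0.17 within cells 20 to 36. With cells 7 and 27 added to the low side it was 1.09, and these cells held Ccl8 at 0 and 4174 FPKM.

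Other members of that list did not reach 2. Maf, a transcription factor of resident macrophages, ran from 0.225 to 673 FPKM (median 69.7) in the high cells against 0.148 to 177 FPKM (median 6.02), a difference of 1.90. Folr2, a folate receptor, differed by 0.89, but by -1.97 within cells 0 to 19 and 2.79 within cells 20 to 36. Cd163, the haemoglobin scavenger receptor, differed by 0.54, and Gas6, a ligand that bridges dying cells to phagocytes, by 1.16. Cd163 was detected in only 3 Mrc1-high cells and 0 Mrc1-low cells. Timd4, a receptor for dying cells on long-lived macrophages, was detected in none of the 25 cells, and Lyve1, a hyaluronan receptor, in 2 Mrc1-high cells. Clec10a, a galactose-binding lectin used as a marker of alternative activation, lay in the opposite direction at -2.64. It had a median of 385 FPKM (0.293 to 1104) in the low and 5.41 FPKM (0 to 877) in the high cells, and differed by -1.97 without cell 35 and by -0.53 within cells 20 to 36.

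**Figure D3:**
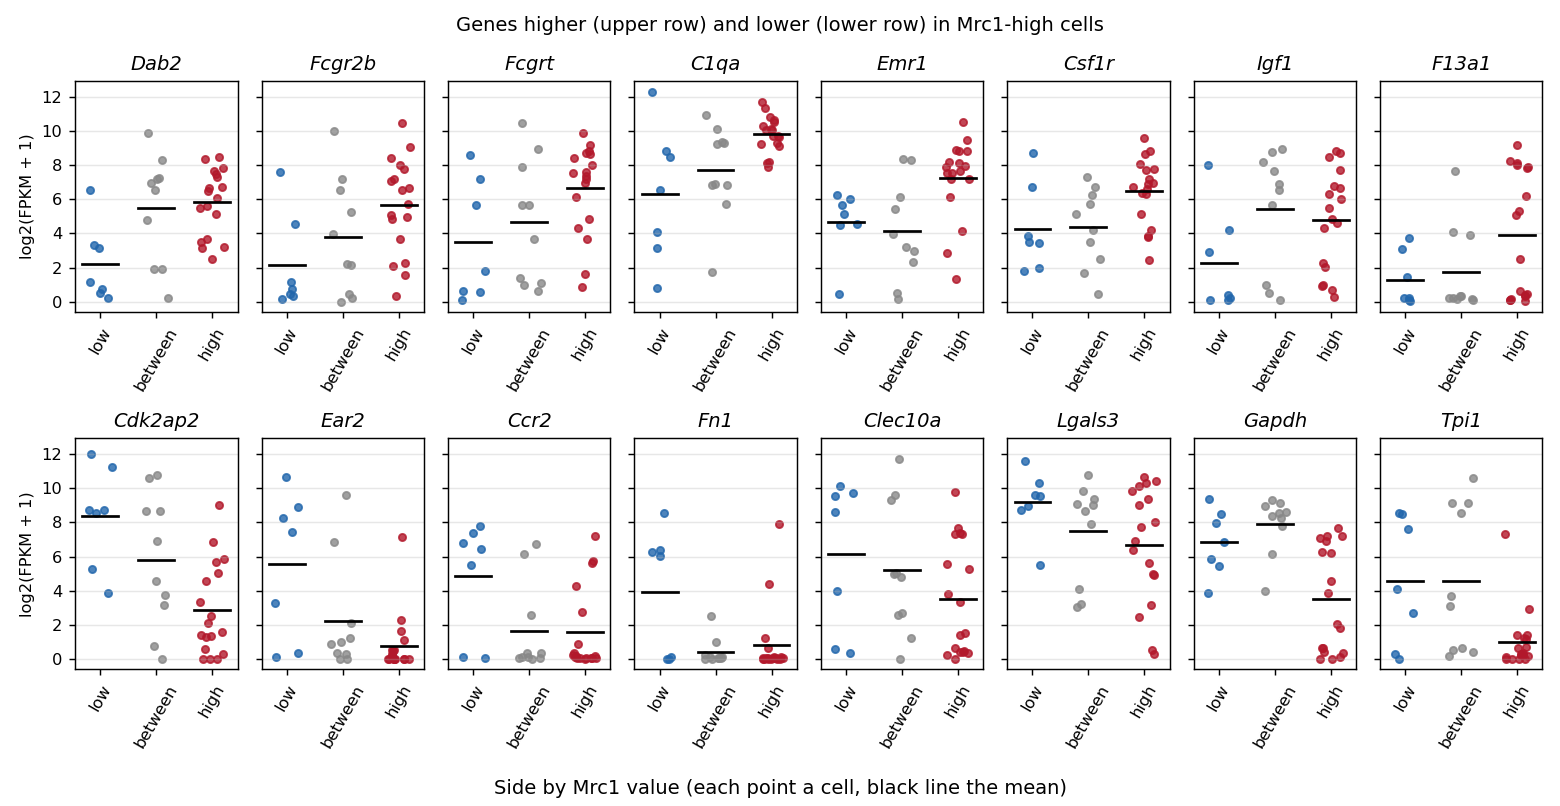
Values as log2(FPKM + 1), on the vertical axes, of 8 genes higher (upper row) and 8 genes lower (lower row) in Mrc1-high cells. Each point is a cell, blue for the 7 Mrc1-low, grey for the 10 between and red for the 18 Mrc1-high cells, and black lines are means. The points of the sides overlap for each of the 16 genes.

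On the list of scavenger and endocytic receptors, 5 of 18 measured genes were higher by 2 or more and 0 were lower, with a median difference of 1.07. Besides Dab2, Fcgr2b, Fcgrt and Stab1 this was Clec12a, an inhibitory lectin that senses uric acid crystals, at medians of 5.08 FPKM (0.049975 to 498) in the high and 0.637 FPKM (0.0602 to 12.01) in the low cells and a difference of 2.32. The 10 cells between had a higher Clec12a median, 28.1 FPKM, than either side, and with a single split at 50 FPKM of Mrc1 its difference was 0.25. Not all uptake genes followed: Cd36, a receptor for oxidised lipoprotein and fatty acids, differed by -1.82, and by -2.17 within cells 20 to 36. Msr1, the class A scavenger receptor, differed by 1.27.

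Genes for clearing dying cells gave 3 of 15 higher and 0 lower, with a median of 0.91, and complement genes 2 of 9 higher and 0 lower, with a median of 0.65. The called genes were Stab1 and the C1q chains C1qa and C1qc, and both lists hold these chains. C1qc had 112 to 1817 FPKM (median 667) in the Mrc1-high and 1.42 to 1755 FPKM (median 197) in the Mrc1-low cells, a difference of 2.73 that was 1.84 without cell 32 and 1.03 within cells 0 to 19. C1qb, the remaining chain, was abundant in every cell, at 766 to 7864 FPKM (median 3634) against 912 to 6598 FPKM (median 2255), and differed by 0.65. Axl, a receptor for dying cells, differed by -1.90 and its relative Mertk by 0.51.

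General macrophage genes were in part higher and in part level. Of 15 on the list, 3 were higher by 2 or more and 0 lower, with a median of 0.22. Emr1, the gene of the macrophage antigen F4/80, ran from 1.51 to 1470 FPKM (median 221) in the Mrc1-high cells and from 0.392 to 74.0 FPKM (median 34.2) in the Mrc1-low cells, a difference of 2.60. For Emr1 14 of the 18 high cells stood above every low cell. The difference was 1.90 without cell 9 and was 1.65 within cells 20 to 36. The order was not a gradient, because the cells between had an Emr1 median of 11.3 FPKM, below that of both sides.

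Csf1r, the receptor for the macrophage growth factor CSF-1, had a median of 111 FPKM (4.36 to 775) in the high and 10.4 FPKM (2.42 to 417) in the low cells, a difference of 2.23. It was 1.81 without cell 32, 1.84 without cell 36, 1.97 after scaling each cell by a size factor and 1.53 within cells 20 to 36. Aif1, the calcium-binding protein IBA1, differed by 2.57, with medians of 44.2 and 2.81 FPKM. In contrast, Lyz2, the lysozyme of myeloid cells, had medians of 2712 and 5555 FPKM and a difference of -0.44. Cd68, a lysosomal glycoprotein, differed by -0.45, but by 2.20 within cells 0 to 19 and -3.26 within cells 20 to 36. The adaptors Tyrobp and Fcer1g differed by -0.31 and 0.23. Cd14, a lipopolysaccharide co-receptor, had a higher median in the high cells, 903 against 601 FPKM, but a lower mean, with a difference of -1.0002. Over all compared cells none of these 5 reached 2 in either direction, and each changed sign in at least 1 subset of cells.

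MHC class II genes, which present peptides to CD4 T cells, gave 2 of 7 higher and 0 lower, with a median of 1.23. The called genes were H2-DMa and H2-DMb1, whose product loads peptide onto class II molecules. H2-DMa had a median of 125 FPKM (0.426 to 2171) in the high and 0.552 FPKM (0.259 to 355) in the low cells, a difference of 2.38. H2-DMb1 had a median of 69.6 FPKM (0.242 to 3394) against 0.559 FPKM (0 to 557), a difference of 2.42. In each case 3 low cells (13, 24 and 36) had the transcript well above 1 FPKM and the other 4 did not. Leaving out cell 4, 9, 32 or 35 gave 1.87 to 1.92 for H2-DMa and 1.84 to 1.95 for H2-DMb1. H2-Ab1, a class II chain, was at 808 FPKM or more in every Mrc1-high cell but not in every Mrc1-low cell. It had medians of 3215 and 3066 FPKM and a difference of 1.14. Cd74, the invariant chain, had medians of 5383 and 6639 FPKM and a difference of 0.66, and the chain H2-Eb1 medians of 1419 and 375 FPKM and a difference of 1.81. In the low cells 35 and 32, H2-Ab1 stood at 12.7 and 261 FPKM, H2-Aa at 89.1 and 7.29 FPKM and H2-Eb1 at 3.14 and 2.60 FPKM. Leaving out 1 cell brought the H2-Ab1 difference to 0.03 (cell 35) and turned that of Cd74 to -0.31 (cell 32). The H2-Eb1 difference was 0.78 without cell 32, 2.61 without cell 9 and 2.63 without the shallow cells. Within cells 0 to 19 the differences were -0.20 for H2-Eb1, -1.44 for H2-Aa, -0.006 for H2-Ab1 and -0.77 for Cd74. Within cells 20 to 36 they were 3.38, 3.50, 2.03 and 2.08, so none of these genes kept its sign. H2-DMa and H2-DMb1 were positive in both number ranges.

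Of 18 genes listed for monocyte-like Ly6C macrophages 7 passed the filter, not including Ly6c2 and Plac8. Of the 7, 3 were lower by 2 or more and 0 higher, with a median of -1.38. Ccr2, the receptor that brings monocytes out of the blood, ran from 0.0418 to 220 FPKM (median 87.2) in the Mrc1-low cells and from 0 to 145 FPKM (median 0.124) in the Mrc1-high cells, a difference of -3.31. It was detected in 5 of 7 and in 5 of 18 cells, and within cells 0 to 19 the difference was -1.18. Fn1, fibronectin, had a median of 63.7 FPKM (0 to 376) against 0.0328 FPKM (0 to 238), a difference of -3.08, and of -1.71 within cells 0 to 19. S100a4, a calcium-binding protein of motile cells, had a median of 105 FPKM (0 to 623) against 3.54 FPKM (0 to 2660) and differed by -2.14. The S100a4 sign was not stable: the difference was -1.34 without the shallow cells and 0.74 within cells 20 to 36, and leaving out any of 11 single cells brought it to between -1.52 and -1.94.

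Alternative activation genes gave 0 of 8 higher and 2 lower, Ear2 and Clec10a, with a median of -0.68. Retnla, a secreted protein of this state, was detected in every cell with medians of 6.53 FPKM in the high and 12.9 FPKM in the low cells and a difference of -1.20. Its direction was not stable: it was 1.49 within cells 0 to 19, -3.41 within cells 20 to 36 and 0.02 without cell 36. Cells 7 and 27, left out for fibroblast genes, had Retnla at 6.53 and 39.1 FPKM. Neither median stood clear of the level in such libraries, so detection in every cell is not read as expression. Mgl2, a lectin close to Clec10a, differed by 1.52. On the CD9 lipid-associated list, 1 of 17 genes was higher and 2 were lower, with a median of -0.37. Fabp4, a fatty acid carrier, had 1.89 to 7516 FPKM (median 516) in the low and 0 to 1706 FPKM (median 88.5) in the high cells, a difference of -2.51 that was -1.71 without cell 9, -1.83 without cell 35 and -0.07 within cells 20 to 36. Lgals3, galectin-3, had 43.7 to 3139 FPKM (median 759) against 0.210 to 1629 FPKM (median 166), a difference of -2.47. Fabp5, a related carrier, lay the other way at 2.29, detected in 10 of 18 and 1 of 7 cells, and at 1.94 without cell 11. Cd9, the tetraspanin that names the list, differed by -0.96, and Lpl, lipoprotein lipase, by -1.33. Trem2, a lipid-sensing receptor, differed by -0.15, with -2.17 within cells 0 to 19 and 1.16 within cells 20 to 36.

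**Figure D4:**
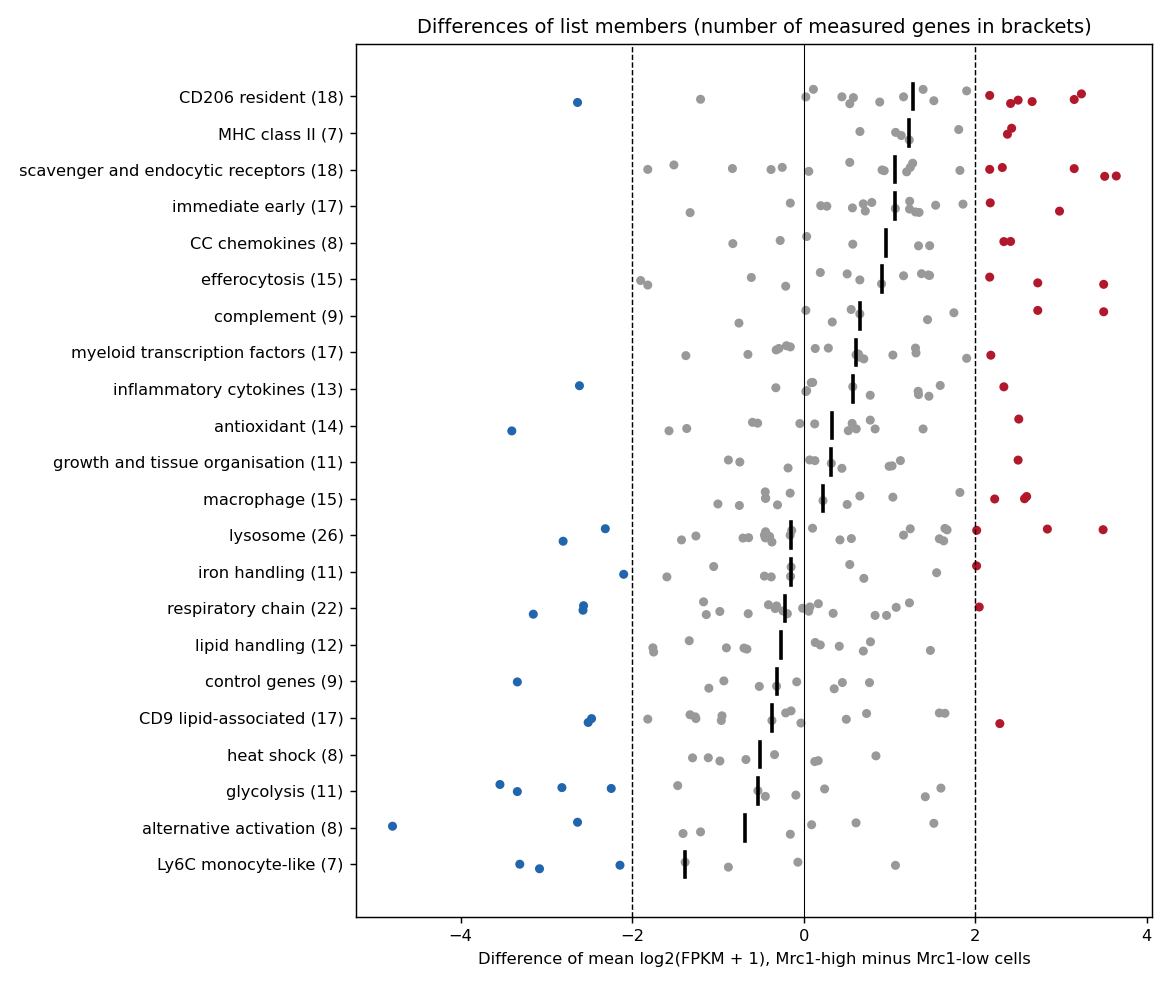
Difference of mean log2(FPKM + 1), Mrc1-high minus Mrc1-low cells (horizontal axis), for each measured gene of the lists with at least 7 such genes (rows, sorted by median). Each point is a gene, red at 2 or more, blue at -2 or less and grey between, with dashed lines at these limits, black bars as list medians and Mrc1 left out. The CD206 resident list has a median of 1.28 and the Ly6C monocyte-like list of -1.38, and points of most lists lie on both sides of 0.

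Inflammatory cytokine genes gave 1 of 13 higher and 1 lower (median 0.57), beside 2.43% and 3.94% over all compared genes. CC chemokines gave 2 of 8 higher and 0 lower (median 0.96). Il1b, interleukin-1 beta, was detected in 4 of 7 Mrc1-low cells, up to 266 FPKM in cell 9, and in 3 of 18 Mrc1-high cells, up to 15.7 FPKM, a difference of -2.61. It was -1.79 without cell 9 and -1.98 without cell 36. Ccl4, a chemokine for monocytes and T cells, had a median of 12.7 FPKM (0 to 2481) in the high and 1.04 FPKM (0.311 to 108) in the low cells, a difference of 2.33, and of 1.95, 1.98 and 1.98 without cell 19, 21 or 35. Tnf differed by 0.09 and Ccl2 by 0.57.

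Immediate early genes, which respond within minutes to stimuli and to tissue digestion, gave 2 of 17 higher and 0 lower. Their median difference was 1.07, against 0.08 over all compared genes. Fos had a median of 302 FPKM (3.999 to 4406) in the Mrc1-high and 49.7 FPKM (1.35 to 400) in the Mrc1-low cells, a difference of 2.18, and of 1.42 without cell 4, 1.94 with size factors and 1.83 without the shallow cells. Leaving out cell 9, 15, 22 or 36 also brought it below 2, to no less than 1.92. The other called gene was Atf3. Whether response to the digestion differed between the sides was not tested. Heat shock genes gave 0 of 8 in either direction (median -0.51).

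Myeloid transcription factors gave 1 of 17 higher and 0 lower, beside 2.43% and 3.94% over all compared genes, with a median of 0.61. Runx1, a factor of blood cell formation, was detected in 10 Mrc1-high cells, up to 138 FPKM, and in 0 Mrc1-low cells, where it did not pass 0.693 FPKM. Its difference of 2.18 was 1.92, 1.90 and 1.94 without cell 11, 12 or 33, 1.94 with size factors and 1.68 within cells 20 to 36. Spi1, the gene of PU.1, differed by -0.65. Genes of growth and tissue organisation gave 1 of 11 higher, Igf1, and 0 lower (median 0.32).

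Glycolysis genes gave 0 of 11 higher and 4 lower, with a median of -0.53. Gapdh, which oxidises glyceraldehyde-3-phosphate, was detected in all 7 Mrc1-low cells at 13.8 to 666 FPKM (median 114) and in 11 of 18 Mrc1-high cells at 0 to 201 FPKM (median 8.45), a difference of -3.34. For Gapdh 10 high cells lay below every low cell, 2 of them listed at 0, and the cells between had the highest median, 352 FPKM. Pkm, pyruvate kinase, had medians of 136 and 0.736 FPKM and a difference of -2.82, which was -1.86 without the shallow cell 24. Ldha, lactate dehydrogenase A, had medians of 198 and 14.6 FPKM and a difference of -2.24, and of -1.80, -1.97 and -1.77 without cell 9, 13 or 32. With Tpi1 these were the 4 lower genes. Not all of the pathway was lower: Gpi1 and Pgk1, which act upstream and downstream of Tpi1, differed by 1.60 and 1.42, and Pgam1 by -0.09.

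Respiratory chain genes gave 1 of 22 higher and 3 lower, beside 2.43% and 3.94% over all compared genes, with a median of -0.22. Atp5k, of the ATP synthase, differed by -3.15, with medians of 261 FPKM in the low and 24.8 FPKM in the high cells, and by -1.06 within cells 20 to 36. Ndufa4 differed by -2.57, and by -0.58 within cells 0 to 19. Cox7c and Cox4i1, both subunits of cytochrome c oxidase, went opposite ways, at -2.57 and 2.05, and neither kept its sign in both number ranges. Cox7c was 0.23 within cells 0 to 19, -1.63 without cell 24 and -3.96 without cell 4. Cox4i1 was -0.51 within cells 20 to 36, and 9 single cells each brought it below 2 when left out, to 1.33 at the lowest, without cell 4.

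Lysosomal genes gave 3 of 26 higher and 2 lower, beside 2.43% and 3.94% over all compared genes, with a median of -0.15. Ctsh, the protease cathepsin H, ran from 0.0916 to 2426 FPKM (median 146) in the high and from 0.165 to 84.0 FPKM (median 17.7) in the low cells, a difference of 2.84. Ctsc was described above, and Man2b1, a mannosidase, stood at 2.02, with 10 single cells whose loss took it below 2. In the other direction, Psap, the precursor of the saposins, had medians of 62.8 FPKM in the low and 14.1 FPKM in the high cells and a difference of -2.81. Lamp1, a lysosomal membrane protein, had medians of 173 and 26.1 FPKM and a difference of -2.31. Without cell 24 these were -1.98 and -1.95.

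Lipid handling genes gave 0 of 12 in either direction, with a median of -0.26. For this list and the iron and antioxidant lists, the shares over all compared genes were 2.43% higher and 3.94% lower. Apoe, the lipid-carrying apolipoprotein, had medians of 12243 FPKM in the high and 18886 FPKM in the low cells, while its difference of means was 1.48, so that the medians and the means had opposite orders. Without cell 36, where Apoe was at 17.3 FPKM, the difference was 0.21. Iron handling genes gave 1 of 11 higher and 1 lower, with a median of -0.15. Hmox1, which breaks down haem, was detected in 6 Mrc1-high and 0 Mrc1-low cells and differed by 2.02, and Blvra, which reduces the biliverdin that Hmox1 yields, differed by -2.10. Each of these was under 2 in size when any of 9 single cells was left out, with 1.60 as the smallest value for Hmox1 and -1.45 for Blvra. Antioxidant genes gave 1 of 14 higher, the metal-binding Mt2 at 2.51, and 1 lower, Prdx5, with a median of 0.32. The Mt2 difference was 0.82 within cells 0 to 19 and 1.90 without the shallow cells. It was 0.40 with cells 7 and 27 added to the low side, where Mt2 stood at 3066 and 2443 FPKM.

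Of the remaining lists, interferon response had 1 measured gene, Ifitm3, at -0.07, and cell cycle had 2, Pcna at -0.71 and Tyms at 0.38. Control genes gave 0 of 9 higher and 1 lower, with a median of -0.32. The lower gene was Gapdh. Actb, beta-actin, differed by -1.11, the ribosomal gene Rpl3 by -0.08 and Ppia, cyclophilin A, by 0.77. Within cells 0 to 19 and 20 to 36 these were 4.26 and -3.05 for Rpl3 and 2.90 and -1.10 for Ppia, so control genes also went opposite ways in the number ranges.

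Few markers of other cell types were detected on either side. Of 12 such lists, 9 had no gene that passed the filter, and no compared cell held more than 2 genes of any of them. The lists of NK cells, neutrophils, eosinophils and mast cells, mesothelial cells and erythroid cells had 0 genes detected in any compared cell. The platelet list is named here because Pf4 is also a platelet gene: 7 of its 8 genes were detected in no compared cell, and Ppbp was detected in 1 Mrc1-high cell at 158 FPKM. The summed level of that list ran from 0 to 158 FPKM in the Mrc1-high and from 0 to 0.169 FPKM in the Mrc1-low cells. The endothelial list was dominated by Fabp4, which macrophages also express, and Pecam1 and Cdh5 were each detected in 1 Mrc1-high cell and in 0 Mrc1-low cells. Of dendritic cell genes, Batf3 was detected in 10 of 18 and 2 of 7 cells and Cd209a in 1 cell of each side. On the T cell list, Il7r was detected in 1 Mrc1-high cell at 1.05 FPKM and in the Mrc1-low cells 4 and 35 at 225 and 17.1 FPKM, and Lck in the Mrc1-low cell 13 at 30.99 FPKM. High single values also stood on the other side: in Mrc1-high cells the fibroblast gene Dpt reached 604 FPKM (1 cell). The B cell gene Cd22 reached 149 FPKM (2 cells) and the adipocyte gene Lipe 71.3 FPKM (1 cell). Of these, Lipe alone was detected on the low side, in 1 cell at 3.30 FPKM. The part of all these genes in the differences was not tested.

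The Mrc1-low cells were not alike. Ccr2 stood at 87.2, 109, 220, 163 and 43.6 FPKM in cells 35, 9, 36, 24 and 32, and at 0.0418 and 0.0618 FPKM in cells 4 and 13. Cells 4 and 13 also had Ear2 and Fn1 below 1 FPKM, and they had C1qa at 5130 and 450 FPKM and Sepp1 at 1710 and 2175 FPKM. Cells 9 and 36, in contrast, combined Ccr2, Fn1 and Il1b with low C1qa, at 15.7 and 7.95 FPKM. The other cells did not follow this split: cell 24, which is shallow, had Ccr2 and Fn1 (63.7 FPKM) together with C1qa at 354 and Sepp1 at 20934 FPKM, and cell 35 had Fn1 at 74.6 and Sepp1 at 479 FPKM. These patterns were noticed in the values and were not tested. In each of the 7, 11 to 14 of the 15 lower genes stood above the median of the Mrc1-high cells and 13 to 15 of the 15 higher genes below it, but the genes were chosen for their difference in these same cells.

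The 10 cells left out lay inside the range of the sides for most of the 30 genes. Their median fell between the medians of the sides for 14 of the 15 higher genes and 12 of the 15 lower genes. Dab2 was the exception among the higher genes, with 109 FPKM in the cells between against 77.3 FPKM in the Mrc1-high cells. Cells 7 and 27, which hold fibroblast genes, had Mrc1 at 2.00 and 1.26 FPKM, C1qa at 5.11 and 11.7 FPKM and Pf4 at 10.9 and 6.60 FPKM. Not every gene higher in the Mrc1-high cells was low there: Sepp1 stood at 8.71 and 511 FPKM and Fcgrt at 145 and 350 FPKM. For Mrc1, C1qa and Pf4 the values show how low these transcripts stood in the libraries with fibroblast genes. The Mrc1-low cells 36 and 32 lay at or under this level for C1qa. For Pf4 the Mrc1-low cells 13, 9, 36 and 32 did, and so did the Mrc1-high cells 12, 14, 15, 19 and 22, at 2.66 to 10.9 FPKM, with cell 17 just above at 11.9.

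Across the 35 cells without fibroblast genes, Spearman correlations with Mrc1 ran from -0.66 to 0.59 and are given as a description, over cells whose libraries differ in depth. The gene closest to Mrc1 was Plek, pleckstrin, at 0.59, with medians of 18.99 FPKM in the Mrc1-high and 0.331 FPKM in the Mrc1-low cells. Birc3, an inhibitor of apoptosis (0.55), Filip1l (0.53) and Eif2b2, a translation factor (0.52), followed. Filip1l was detected in 6 and Eif2b2 in 5 Mrc1-high cells, and both in 0 Mrc1-low cells and 0 cells between. Both thus passed the filter through the high side alone, and their ranks are no support for a link with Mrc1. F13a1, Ctsc, Nr3c1, the glucocorticoid receptor, Slc25a37, the mitochondrial iron carrier, and Cited2, a transcriptional co-regulator, all stood at 0.51. Birc3, Nr3c1, Slc25a37 and Cited2 were detected in 9, 9, 6 and 5 Mrc1-high cells. They were detected in 1, 1, 1 and 0 Mrc1-low cells and in 1, 2, 1 and 2 cells between. They too passed the filter only through the high side, so their ranks are no support either. Stab1, Pf4 and Sepp1 stood at 0.47, 0.43 and 0.31.

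The most negative correlation was that of Cdk2ap2, at -0.66. Ppp2r5a, a phosphatase subunit (-0.55), Elovl1, a fatty acid elongase (-0.54), Txndc9 (-0.53), Pi4k2a, a lipid kinase (-0.52), and Kpna6, a nuclear import receptor (-0.52), were also among the lowest. Ufd1l, Gapdh and the transcription factor Ets2 stood at -0.51. Several of these are sparse: Txndc9 and Kpna6 were detected in 0 Mrc1-high and 3 Mrc1-low cells, and Elovl1 in 3 cells of each side, so their ranks rest largely on values under 1 FPKM.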

How the data were processed

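FPKM were deposited in a single table that holds 23947 genes and 37 cells. STAR, Cuffnorm and the mouse build mm9 are named in the list of tools and builds, per the submitters' processing notes. Their versions, the annotation and the settings used are not stated there. The values are not whole reads, so no count test was run and the depth of each cell is unknown. The stand-in for depth, the worth of 1 fragment, came from the most frequent ratio of low values in 655 of 666 pairs of cells and spanned 88.2-fold. An exact 0 can be a failed estimate and is described as listed at 0.

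Values were taken as log2(FPKM + 1), which understates the change of low genes. Genes at 1 FPKM or more in at least 5 cells were compared, and a difference of 2 or more in size was called. The genes named are the 4 markers, the 15 largest differences in each direction with the same sign in every subset of cells (each number range, without shallow cells, without each cell), members of the 36 gene lists past 2 or of known role, and the 10 highest and 10 lowest Spearman correlations with Mrc1. Psme2, Psma1 and the grouping of the Mrc1-low cells were chosen after their values were seen, as were the promoter motifs. A few genes that this rule names are not reported here. The lists (24 of functions, 12 of other cell types) held 452 genes, of which 448 were in the table. The members, lists, thresholds and number ranges were chosen with earlier results of these data known.

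Promoters came from RefSeq on GRCm38.p6, which is not the build of the files, so no coordinate was joined to the values. Alternatives were another pseudocount, filter, Mrc1 threshold or centre, size factors, the number of detected genes as a covariate, and leaving out or adding cells. The calculation was tested on simulated data. Python 3.11.15, numpy 2.4.6, pandas 2.3.3, scipy 1.17.1 and matplotlib 3.10.9 were used.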

Additional observations from a re-analysis of the deposited data

How the results depend on the processing

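The counts of genes past 2, 106 higher and 172 lower, moved by more than 1.5 times with several choices, and the cause was not tested. They were 383 and 442 with a pseudocount of 0.1, 185 and 280 with medians in place of means, 49 and 90 with all 35 cells split at 50 FPKM of Mrc1 (24 against 11 cells), and 192 and 271 with 200 FPKM or more against below 5 (12 against 5 cells). Within cells 0 to 19 (12 against 3) they were 371 and 333, and within cells 20 to 36 (6 against 4) 216 and 544. The stricter and looser filters, size factors, the covariate, leaving out shallow cells and adding cells 7 and 27 kept both counts within 1.5 times, although size factors changed the split to 77 higher and 195 lower. Leaving out each cell in turn gave 98 to 142 higher and 166 to 238 lower genes. Of 1591 recomputed values over 115 genes, 1568 moved by less than 1 SD of cells. That SD can exceed a called difference, so this count is no sign of stability. For Pf4 it was 4.03 in the Mrc1-high and 3.96 in the Mrc1-low cells, against a difference of 3.24. Of the 69 named genes past 2, 3 changed sign: S100a4 to 0.74 and Cox4i1 to -0.51 within cells 20 to 36, and Cox7c to 0.23 within cells 0 to 19. Of the other 46 genes, whose difference was under 2, 24 changed sign in at least 1 setting. Of the 69, 46 stayed past it with the split at 50 FPKM, 56 within cells 0 to 19, 52 within cells 20 to 36 and 67 with the covariate. No paired analysis was possible because all cells belong to 1 group. Unknown depth and 7 Mrc1-low cells limit every value.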

Other observations

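Partners in the same protein complex did not always share a direction. Psme1 and Psme2 encode the alpha and beta subunits of the proteasome activator PA28, which assemble together. Psme1 was detected in 13 of 18 Mrc1-high and 1 of 7 Mrc1-low cells, with a difference of 4.01. Psme2 was detected in 2 of 18 and 3 of 7 cells, up to 3.00 FPKM in the former and 476 FPKM in the latter, with a difference of -3.32. Both kept their sign within each number range, at 4.94 and 2.87 for Psme1 and at -2.53 and -3.79 for Psme2. Psma1, a single subunit of the proteasome core, differed by 2.74, which is no result about the core as a whole. The pair and Psma1 were picked after their values were seen, and no test of the opposition was made.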
